A study of Mus musculus with 4 samples.

Results

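The genes described here belong to the MHC class II pathway of antigen presentation, measured in lung sections of mice that were vaped (V) or not vaped (NV). The 7 genes are H2-Aa, H2-Ab1 and H2-Eb1, which encode peptide-binding chains, Cd74, the invariant chain that escorts new class II molecules and blocks their groove, H2-DMa and H2-DMb1, which encode the exchange factor H2-M, and Ciita, the coactivator that turns the pathway on. The list was set by gene name and not by a threshold on measured values, and its members are 7 of the 32285 genes in each table of counts.

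Class II molecules carry peptides of ingested proteins to the cell surface, where CD4+ T cells read them. B cells, dendritic cells and activated macrophages express them most, and in the mouse lung type 2 pneumocytes, the cells that make surfactant, express them as well. Transcription depends on Ciita, which does not bind DNA itself but docks on RFX, CREB and NF-Y proteins seated on a conserved promoter module of X and Y boxes.

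The samples came from 4 C57BL/6J mice, 1 male and 1 female in each group. V mice breathed flavoured e-vapor in a whole body chamber 4 h daily, 5 days a week, throughout 9 weeks, starting at about 8 weeks of age, and NV mice breathed none. A single cryosection of the upper pulmonary branches of each mouse was placed on a Visium slide, where each spot captures polyadenylated RNA from a small patch of tissue that can hold several cells, and every captured molecule carries a unique molecular identifier (UMI). With a single section per mouse, n is 2 per group, and an exact two-sided permutation test of a single value could not go below p = 0.33.

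The NV sections covered 842 (male) and 473 (female) spots and the V sections 1565 (male) and 2053 (female) spots, with 6957392 to 34308556 UMIs per section and a median of 6259 to 11355 UMIs per spot. The V male section stood apart in its tissue. Spots were called alveolar where the summed level of Ager, Hopx, Cldn18, Tmem100 and Calcrl, genes of alveolar type 1 cells and capillaries, reached 50% of its level over all spots, and 1560 of 1565 spots of the V male were alveolar, against 72.9% to 80.3% of spots in the other sections. Cardiac muscle markers reached 18.2 CPM in the V male and 3673 to 7015 CPM in the other sections. Markers of alveolar type 2 cells, the tissue's most abundant list, were present in all sections, at 22363 to 43578 CPM. Pairs of sections shared 277 to 1167 spot barcodes, and Visium slides carry the same set of barcodes in each capture area.

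Of the genes, 5 lie together on chromosome 17 of GRCm38, within 197 kb between positions 34119541 and 34316674. In order these are H2-DMa (chr17:34119541-34139101), H2-DMb1 (chr17:34153072-34160230), H2-Ab1 (chr17:34257689-34269419), H2-Aa (chr17:34282744-34287823, minus strand) and H2-Eb1 (chr17:34305867-34316674). Ciita lies on chromosome 16 (chr16:10480059-10528418).

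The promoter module that recruits Ciita can be read in the RefSeq promoter sequences (GRCm38.p6), which matched H2-Aa, H2-Eb1, H2-DMa and H2-DMb1 among the 7 genes. A search of the 250 bases before each start, on both strands, for the letters TGATG or TGACG of the X region, then 15 to 25 bases, then the Y box ATTGG, found the module in H2-Aa, H2-Eb1 and H2-DMb1 and in neither window of H2-DMa. The same module stood in 305 of 32851 promoters (0.928%), whereas the Y box alone, as ATTGG or CCAAT, stood in 33.8% of them. The stretches are shown because they place the X and Y letters of the 3 genes side by side, with the close paralog H2-DMb2 below them, and capitals mark the matched letters.
H2-Aa, chr17:34287867-34287897, minus strand: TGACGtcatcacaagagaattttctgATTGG
H2-Eb1, chr17:34305784-34305812, plus strand: TGATGctggactcctttgatgctgATTGG
H2-DMb1, chr17:34153105-34153134, plus strand: TGATGctaggctgattcactcagtgATTGG
H2-DMb2, chr17:34145134-34145163, plus strand: TGATGctaggctaagtcacttagtgATTGG
The spacer between the marked letters was 21 bases in H2-Aa, 19 bases in H2-Eb1 and 20 bases in both H2-DMb genes. A match describes letters and is not evidence of binding. The H2-DMb1 stretch lies within the first exon of that gene as GENCODE annotates it.

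Class II transcripts made up 0.270% to 0.426% of the UMIs of a section. Levels are given as counts per 1000000 UMIs (CPM) of the section. The 7 genes together reached 4259 CPM (male) and 3375 CPM (female) in NV and 2696 CPM (male) and 3148 CPM (female) in V. Both V sections lay below both NV sections, by a ratio of 0.633 between the males and 0.933 between the females. The genes with the most UMIs kept similar shares of the class II UMIs in all sections, and the share of Ciita varied most. Cd74 contributed 41.6% to 45.3% of class II UMIs, H2-Ab1 19.8% to 21.6%, H2-Aa 18.5% to 19.96%, H2-Eb1 10.0% to 12.8%, H2-DMb1 2.01% to 2.83%, H2-DMa 1.85% to 2.68% and Ciita 0.318% to 0.706%. These are shares of captured UMIs, and the capture of each transcript was not measured, so they do not rank the genes by abundance.

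The genes of the peptide-binding chains were detected in most spots. H2-Aa, the alpha chain of I-A, stood at 846 CPM (male) and 674 CPM (female) in NV and 527 CPM (male) and 583 CPM (female) in V. H2-Ab1, its beta chain partner, stood at 920 CPM (male) and 707 CPM (female) in NV and 542 CPM (male) and 623 CPM (female) in V. H2-Eb1 encodes the beta chain of I-E, a molecule that C57BL/6 mice do not assemble because the gene of its alpha chain, annotated as H2-Ea-ps, is defective in this strain. It stood at 445 CPM (male) and 432 CPM (female) in NV and 271 CPM (male) and 399 CPM (female) in V. For all 3 chains both V sections were below both NV sections, with the V male lowest. The ratio of H2-Aa to H2-Ab1 UMIs was 0.919 to 0.972 across the sections.

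Cd74, which lies apart from the cluster at chr18:60803848-60812652, followed the same order of groups. Its level was 1835 CPM (male) and 1403 CPM (female) in NV and 1222 CPM (male) and 1358 CPM (female) in V. Over whole sections the groups did not overlap, although the NV female and the V female were close.

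The genes of peptide loading and of control did not separate the groups. H2-DMa stood at 84.8 CPM (male) and 78.5 CPM (female) in NV and 50.0 CPM (male) and 84.4 CPM (female) in V. H2-DMb1 stood at 105 CPM (male) and 67.8 CPM (female) in NV and 76.3 CPM (male) and 77.6 CPM (female) in V. Ciita stood at 22.8 CPM (male) and 13.1 CPM (female) in NV and 8.59 CPM (male) and 22.2 CPM (female) in V. The groups overlapped for these 3 genes, and Ciita was lower in V between the males, at a ratio of 0.377, and higher in V between the females, at a ratio of 1.70.

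**Figure D1:**
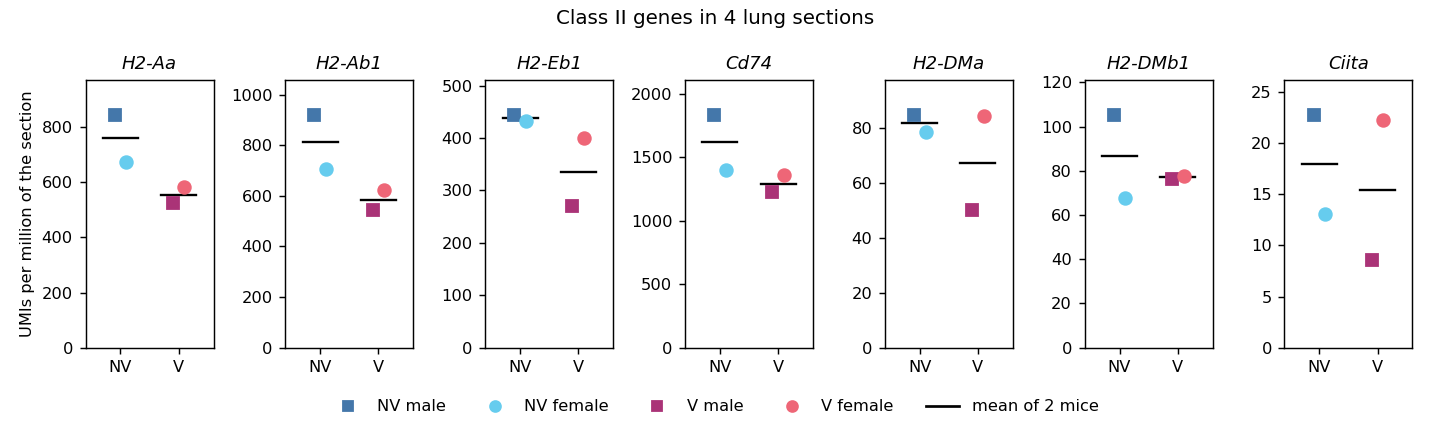
CPM of each section for the 7 class II genes, with squares for males, circles for females and a line at the mean of the 2 mice of a group. Both V points lie below both NV points for H2-Aa, H2-Ab1, H2-Eb1 and Cd74, and the groups overlap for H2-DMa, H2-DMb1 and Ciita.

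None of these differences passed the test. Counts summed per section were compared with edgeR's quasi-likelihood test, with Benjamini-Hochberg adjustment over 14570 genes, and a gene was called at an adjusted p under 0.05 where its log2 fold change also exceeded 0.25 in either direction. Log2 fold changes of V over NV were -0.47 (SE 0.28) for H2-Aa, -0.49 (SE 0.30) for H2-Ab1, -0.39 (SE 0.34) for H2-Eb1 and -0.34 (SE 0.31) for Cd74. They were -0.27 (SE 0.37) for H2-DMa, -0.19 (SE 0.27) for H2-DMb1 and -0.18 (SE 0.62) for Ciita. The adjusted p from edgeR was 1.0 for each of the 7 genes, and no gene at all was called (0% of 14570), with 248 genes at an unadjusted p under 0.05, none of them among the 7. DESeq2's Wald test called 8 genes, again none of the 7. The median log2 fold change of the 7 genes was -0.34, beside 0.025 over all genes tested. Both V sections were below both NV sections for 4 of the 7 genes and for 14.4% of all genes tested.

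Single sections moved these values. Without the V female, edgeR called 811 genes and none of the 7, and the median of the 7 genes was -0.73. Without the V male it called 21 genes and none of the 7, the median was -0.084, and H2-DMa (0.12) and Ciita (0.38) turned to higher in V. Without the NV male, H2-DMb1 (0.15) and Ciita (0.25) turned to higher in V. Restricted to alveolar spots, which all sections held, log2 fold changes were -0.40 (SE 0.27) for H2-Aa, -0.46 (SE 0.28) for H2-Ab1 and -0.30 (SE 0.28) for Cd74, and no gene was called.

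Markers of other cells that express class II differed between the same sections. The 8 B cell markers summed to 305 and 328 CPM in NV and 150 and 205 in V, and each of the 8 was below NV in both V sections. The 10 dendritic cell markers summed to 139 to 154 CPM in NV and 107 to 109 in V, with 7 of the 10 lower in both V sections. The other 3 had positive log2 fold changes, up to 1.03, and 1 of them was higher in both V sections. Of all genes tested, 14.4% were lower in both V sections than in both NV sections. The 8 interstitial macrophage and monocyte markers summed to 520 and 654 CPM in NV and 255 and 420 in V. The 9 alveolar macrophage markers summed to 314 and 428 CPM in NV and to more in V, 572 and 720, with 7 of the 9 higher in both V sections and Mrc1 lower by log2 fold change (-0.24). The share of all genes higher in both V sections was not computed, so that count has no background. None of these lists held a marker at 0 over a whole section or a gene that was called. Their part in the class II levels was not tested, and in whole spots fewer cells of a type and less RNA per cell cannot be told apart.

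The other genes of the pathway showed a like picture, with no call among the 22 of 25 listed genes that were tested. Their median log2 fold change was -0.21, 15 were negative, and 9 had both V sections below both NV sections, beside 14.4% of all genes tested. The lowest values were those of H2-DMb2, the paralog of H2-DMb1, and of H2-Ob, the beta chain of H2-O, an inhibitor of H2-M found mainly in B cells. H2-DMb2 stood at 55.1 and 43.1 CPM in the NV male and female and at 23.4 and 28.4 in the V male and female, a log2 fold change of -0.93 (SE 0.25, edgeR adjusted p = 1.0), which among 11 alternatives passed only without the V female (-1.21, adjusted p = 0.0440). H2-Ob stood at 45.2 and 36.5 CPM in the NV male and female and at 21.0 and 23.7 in the V male and female, a log2 fold change of -0.88 (SE 0.22, edgeR adjusted p = 1.0). Ctss, the protease that trims the invariant chain, stood at 109 and 119 CPM in NV and 83.2 and 117 in V, without separation. Interferon gamma, the main inducer of Ciita, was nearly absent as a transcript, at 1 to 7 UMIs of Ifng per section.

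H2-DMb1 and H2-DMb2 are close enough to share reads. Of the 50-base windows in the last 500 bases of the longest H2-DMb1 transcript, where these libraries read, 20.4% also occur in H2-DMb2, so the assignment of reads from H2-DMb1 is uncertain. Of the windows at the end of H2-DMb2, 0 of 451 occur in H2-DMb1. No such window was shared between H2-Eb1 and H2-Eb2.

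At equal depth the genes differed in how widely they were seen. Spots with at least 3000 UMIs were thinned to 3000 UMIs, which left out 52 to 224 spots per section. Cd74 was then found in 94.8% to 97.0% of spots and H2-Ab1 in 78.4% to 90.6%. H2-Eb1 was found in 70.5% (male) and 67.0% (female) of NV spots and in 52.5% (male) and 70.9% (female) of V spots, so that the V male was the low section. H2-DMb1 was found in 20.4% to 31.1% of spots and H2-DMa in 13.4% to 25.2%. Ciita was found, with exact binomial intervals at 95%, in 6.16% of spots of the NV male (4.53% to 8.15%), in 4.99% of the NV female (3.11% to 7.52%), in 2.71% of the V male (1.92% to 3.72%) and in 7.82% of the V female (6.63% to 9.15%). Such intervals account for counting error alone. Without thinning the Ciita shares were 5.88% to 28.1%, and the V male again was lowest and the V female highest.

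Within sections class II transcripts made up more of the UMIs in alveolar spots. In the 3 sections with both kinds of tissue, all 7 genes were higher in CPM in alveolar spots than in other spots, with log2 ratios of 0.14 to 1.53. The share of all genes higher in alveolar spots was not computed. Cardiac muscle markers in other and alveolar spots were 18135 and 2931 CPM in the NV male and 12785 and 2107 in the NV female. In the V female they were 6048 and 1971 CPM. The part of this tissue in the ratios was not tested. Cd74 was 2129 CPM in alveolar and 902 in other spots of the NV male, 1684 and 1072 in the NV female, and 1849 and 673 in the V female. H2-DMb1 was 123 and 49.8 CPM in the NV male, 91.5 and 40.0 in the NV female, and 105 and 39.7 in the V female. H2-Eb1 in the NV female had the smallest step, 451 CPM in alveolar and 410 in other spots. Only 5 spots of the V male were not alveolar, which held 14 class II UMIs in all, so no ratio is given for that section.

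The level in alveolar tissue alone set the V male apart. H2-Aa in alveolar spots was 955 CPM (male) and 775 CPM (female) in NV and 527 CPM (male) and 769 CPM (female) in V. H2-DMa in alveolar spots was 97.8 CPM (male) and 93.9 CPM (female) in NV and 49.9 CPM (male) and 110 CPM (female) in V. The V female was close to the NV sections in both genes and the V male below them. In alveolar spots H2-Eb1 was 493 CPM (male) and 451 CPM (female) in NV and 271 CPM (male) and 504 CPM (female) in V. Cd74 was 1849 CPM in the V female, above the 1684 CPM of the NV female. The groups therefore overlapped in alveolar spots for H2-Eb1 and Cd74. For H2-Aa and H2-Ab1 both V sections stayed below both NV sections there.

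**Figure D2:**
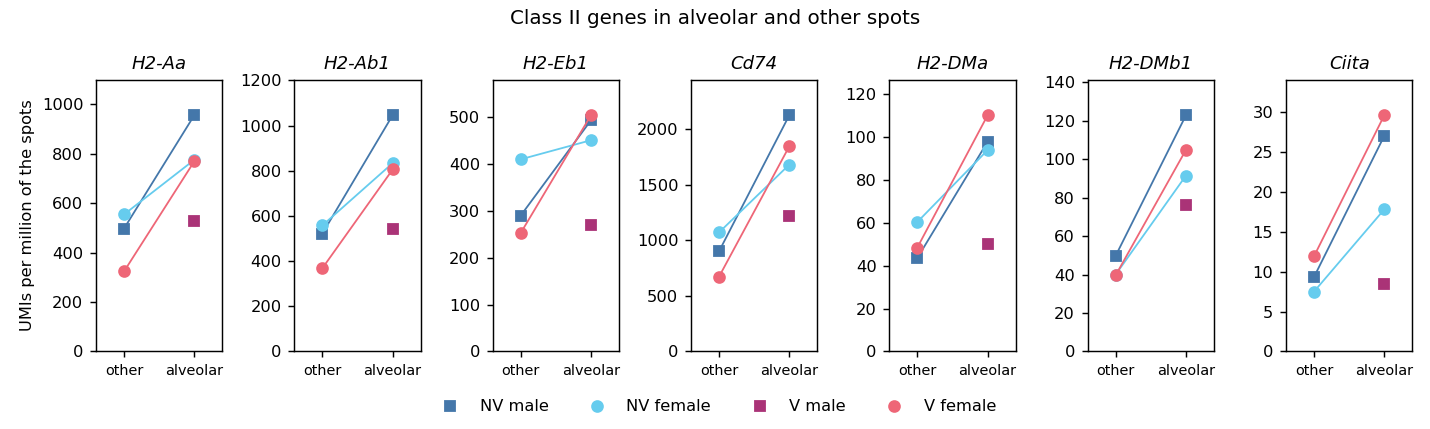
CPM in alveolar and other spots of each section for the 7 genes, with lines joining the values of a section. The 3 sections with both tissues rise from other to alveolar spots for every gene, and the V male is shown for alveolar spots alone, where it is the lowest section for each of the 7 genes.

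The spots were next sorted by a marker of each candidate cell type, at 3000 UMIs per spot, and class II UMIs summed per section and class were compared with the section as a block. Spots with a UMI of Cd79a, a chain of the B cell receptor complex, numbered 127 (NV male), 95 (NV female), 152 (V male) and 311 (V female). H2-Ab1 in spots with and without Cd79a was 1045 and 906 CPM in the NV male, 902 and 741 in the female of that group, 579 and 522 in the V male and 765 and 695 in the V female. It was higher with Cd79a in all 4 sections, by a ratio of 1.10 to 1.22, and was the only member of which this held. The ratio was below 1 in the V male for H2-Aa (0.971), Cd74 (0.991) and Ciita (0.911), in the NV male for H2-Eb1 (0.970), H2-DMa (0.874) and H2-DMb1 (0.915), and in the NV female for Ciita (0.807).

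That difference was small beside the test. The log2 fold change was 0.15 (SE 0.057) for H2-Ab1, with an edgeR adjusted p of 0.287 over 10003 genes, 0.12 (SE 0.059) for H2-Aa and 0.12 (SE 0.053) for Cd74. The other 4 genes were between 0.048 and 0.13, and the median of the 7 was 0.12, beside 0.0013 over all genes. That median was 0.038 in alveolar spots alone, 0.077 at 1000 UMIs per spot and 0.0014 without thinning. Spots with Cd79a also held less of other tissues. Called lower were 4 of 5 cardiac muscle, 3 of 3 club cell and 3 of 4 adipocyte markers, beside 170 of all 10003 genes. The part of these tissues was not tested beyond the alveolar spots. None of the 7 genes was called by edgeR, where 3 had an unadjusted p under 0.05, or by DESeq2's Wald test, which gave 4 of the 7 an adjusted p. Calls upward were rare in this comparison, at 9 genes (0.0900% of those tested), Cd79a included by construction. H2-DMb2 was among them, with 84.0 and 57.4 CPM with and without Cd79a in the NV male, 56.1 and 38.9 in the female of that group, 46.1 and 22.3 in the V male and 45.0 and 30.5 in the V female, a log2 fold change of 0.60 (SE 0.17, edgeR adjusted p = 0.0362). So was Cd79b, the partner of Cd79a, at a log2 fold change of 0.53 (SE 0.13, edgeR adjusted p = 0.00614), a call lost in 5 of 13 alternatives, among them leaving out the V female (adjusted p = 0.522), with log2 fold changes of 0.058 to 0.65. The H2-DMb2 call was lost in 10 of 13 alternatives, among them leaving out each of the 4 sections in turn (edgeR adjusted p = 0.0558 to 0.195), and its log2 fold change stayed between 0.25 and 0.65.

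Marco, a scavenger receptor of alveolar macrophages, gave fewer spots to compare, with 33 (male) and 12 (female) in NV and 186 (male) and 161 (female) in V. Cd74 in spots with and without Marco was 1980 and 1855 CPM in the NV male, 2750 and 1438 in the female of that group, 1217 and 1200 in the V male and 1758 and 1589 in the V female. The NV female value rests on 99 UMIs in 12 spots. Log2 fold changes of the 7 genes ran from -0.057 to 0.17, with a median of 0.034 beside -0.031 over all genes, and the median was -0.30 to 0.14 over the alternatives. None was called by edgeR or by DESeq2's Wald test and none had an unadjusted p under 0.05, and upward calls were made for 3 of 9633 genes (0.0311%), Marco included.

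Sftpc, the surfactant protein of type 2 cells, was found in every spot of at least 3000 UMIs, so the 25% of spots highest in Sftpc were set against the 25% lowest in each section. H2-DMb1 was the only member called higher. Its level in the lowest and highest spots was 73.3 and 156 CPM in the NV male, 34.9 and 130 in the female of that group, 65.7 and 100 in the V male and 48.9 and 118 in the V female. It was higher in all 4 sections, with a log2 fold change of 0.89 (SE 0.18, edgeR adjusted p = 0.00751 over 9174 genes). Cd74 and H2-Aa were also higher in all 4 sections but were not called. Their ratios in the V male were 1.09 (Cd74) and 1.02 (H2-Aa). Upward calls were made for 132 genes in this comparison (1.44% of those tested), among which all 7 type 2 markers stood, Sftpc by construction and Lamp3 for example at 1.45.

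The other class II genes did not pass. Cd74 went from 1284 to 1958 CPM from the lowest to the highest spots in the NV male, from 1016 to 1692 in the NV female, from 1152 to 1251 in the V male and from 802 to 2065 in the V female, a log2 fold change of 0.47 (SE 0.20, edgeR adjusted p = 0.215). H2-Ab1 went from 725 to 916 CPM in the NV male, from 530 to 873 in the NV female, from 565 to 463 in the V male and from 429 to 820 in the V female, a log2 fold change of 0.18 (SE 0.19). The V male was flat or lower where the other sections were higher. Log2 fold changes were 0.34 (SE 0.19) for H2-Aa, 0.12 (SE 0.20) for H2-DMa, -0.083 (SE 0.19) for H2-Eb1 and 0.35 (SE 0.42) for Ciita, the last on 2 to 44 UMIs per section and class. The median of the 7 genes was 0.34, beside -0.0015 over all genes. It turned to -0.044 in alveolar spots alone, where 4 of the 7 were negative, and was 0.11 without the V female and 0.15 between the upper and lower 50% of spots. Of 18 further pathway genes tested, only Ifi30, a lysosomal thiol reductase that unfolds antigens, was called, at 0.69 (SE 0.18, edgeR adjusted p = 0.0330), a call lost in 9 of 15 alternatives, among them leaving out the NV male (adjusted p = 0.151), the NV female (0.169) or the V female (0.222).

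The H2-DMb1 call depended on the sections and the depth. Its adjusted p from edgeR was 0.103 without the NV male, 0.0519 without the NV female and 0.0885 without the V female, with log2 fold changes of 0.79 to 0.98, whereas without the V male Cd74, H2-Aa and H2-DMb1 were all called. Thinning to 1000 UMIs gave 0.44 (adjusted p = 0.405), thinning to 5000 UMIs gave 0.55 (adjusted p = 0.0637), and ranking by 6 other type 2 markers, an alternative chosen after the data were seen, gave 0.65 (adjusted p = 0.0513). Within alveolar spots alone it was 0.46 (SE 0.13, adjusted p = 0.0373) and was still called.

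The classes also differed in tissue. In the NV male the cardiac muscle markers summed to 12299 CPM in the spots lowest in Sftpc and 2864 in the highest, in the NV female to 11375 and 2356, and in the V female to 6125 and 1403. In the V male they were 14.7 and 16.7 CPM. B cell markers rose from 124 to 292 CPM in the V female and were 154 and 152 in the V male. The part of these tissues in the class II values was not tested beyond the alveolar spots.

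**Figure D3:**
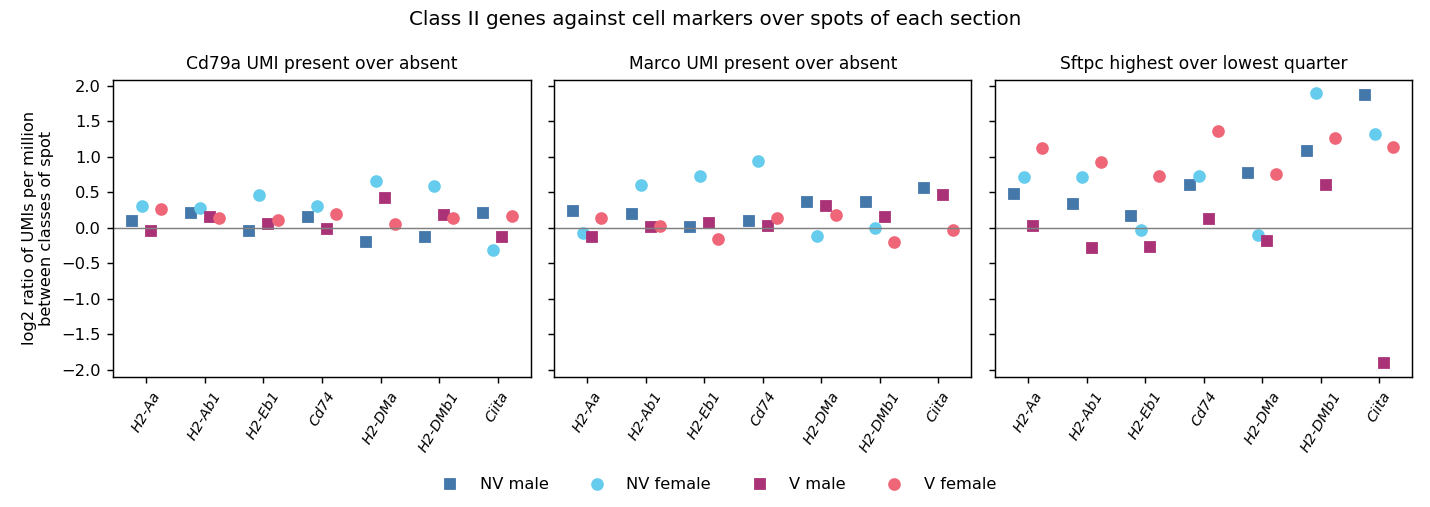
Log2 ratio of CPM between classes of spot in each section, for spots with and without Cd79a, with and without Marco, and for the 25% of spots highest over the 25% lowest in Sftpc. Ratios for Cd79a and Marco lie on both sides of 0 and reach 0.66 (H2-DMa, Cd79a) and 0.94 (Cd74, Marco) in the NV female. For Sftpc, H2-DMb1, Cd74 and H2-Aa are above 0 in all 4 sections, and the V male is the lowest section in that panel for every gene. Ciita has no Marco point in the NV female, where those spots held 0 UMIs of it.

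The marker contrasts were not shown to differ between V and NV. For Cd79a the differences of log2 fold change between groups were -0.082 to 0.099 over the 7 genes, for Marco -0.18 to 0.15, and for Sftpc -1.28 to 0.37. edgeR's interaction test, the sole tool run for this, called no gene in any of the 3 comparisons, with 449, 477 and 256 genes at an unadjusted p under 0.05 and none of the 7 genes among them. The smallest unadjusted p of a class II gene was 0.244.

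Over single spots the same pattern could be described without a test. At 3000 UMIs per spot the summed class II count correlated with Sftpc at 0.49 (male, 731 spots) and 0.49 (female, 421 spots) in NV and at 0.033 (male, 1363 spots) and 0.65 (female, 1829 spots) in V. In alveolar spots alone it was 0.015 (male) and 0.039 (female) in NV and 0.033 (male) and 0.31 (female) in V. These values depended on the scaling and thinning, since log counts per 10000 UMIs of unthinned alveolar spots gave 0.45 (male) and 0.10 (female) in NV and 0.055 (male) and 0.37 (female) in V. The correlation with Cd79a was 0.012 to 0.18 and with Marco 0.010 to 0.14 over all spots. Spots of a section share a library and neighbouring tissue and are not replicates.

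The class II genes went along with one another from spot to spot only loosely at this depth. H2-Aa correlated with Cd74 at 0.33 (male) and 0.33 (female) in NV and at 0.097 (male) and 0.32 (female) in V. H2-Aa correlated with its partner H2-Ab1 at 0.22, 0.25, 0.13 and 0.16 in the same order. At a mean of 1.55 to 2.79 UMIs per spot for these 2 genes, counting error limits such values.

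Among 10398 genes with a UMI in at least 5% of spots of every section, the 10 most like the summed class II level over spots, other than the 7 genes themselves, were Lyz2, Actb, Tmsb4x, Inmt, Cbr2, Sftpa1, Sftpb, Sftpc, Mgp and Eef1a1. Likeness was the Pearson correlation of log counts per 10000 UMIs over all spots of a section, averaged over the 4 sections. Lyz2, a lysozyme of macrophages and type 2 cells, led with a mean of 0.45, with 0.59 (male) and 0.46 (female) in NV and 0.12 (male) and 0.63 (female) in V. In alveolar spots alone the values were lower, and Rps27 led at 0.35. In alveolar spots Cd79a had a mean of 0.086 and Marco 0.054.

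The spots richest in class II, by construction, held more of the 7 genes, and were described by what else they held. The top 5% of spots with at least 3000 UMIs were 37 (male) and 22 (female) in NV and 69 (male) and 92 (female) in V, and they carried 14.7%, 21.2%, 12.6% and 8.41% of all class II UMIs. Of these spots 33 of 37, 15 of 22, 69 of 69 and 92 of 92 were alveolar. Among all spots of these sections, those under 3000 UMIs included, 78.7%, 72.9%, 99.7% and 80.3% were alveolar in the same order. Dendritic cell markers summed to 343 CPM in the top spots of the NV male against 142 in the rest, to 339 against 126 in the NV female, to 195 against 105 in the V male and to 190 against 103 in the V female, higher in all 4 sections. Interstitial macrophage and monocyte markers were also higher in all 4 sections, from 1805 against 581 CPM in the NV female to 529 against 415 in the V female. Cardiac muscle markers were lower in the top spots, at 2470 against 6825 CPM in the NV male and 1581 against 7422 in the NV female. They were 1351 against 3787 in the V female and 14.4 against 18.4 in the V male. The part of this tissue in the other lists was not tested. Type 2 cell markers were 36018 against 33103 CPM in the NV male and 26181 against 22094 in the NV female. They were 40349 against 21725 in the V female but lower in the V male, 39133 against 43907. B cell markers were higher in the top spots of the females, at 1054 against 281 CPM in NV and 254 against 202 in V, and lower in those of the males, at 265 against 311 in NV and 122 against 151 in V.

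**Figure D4:**
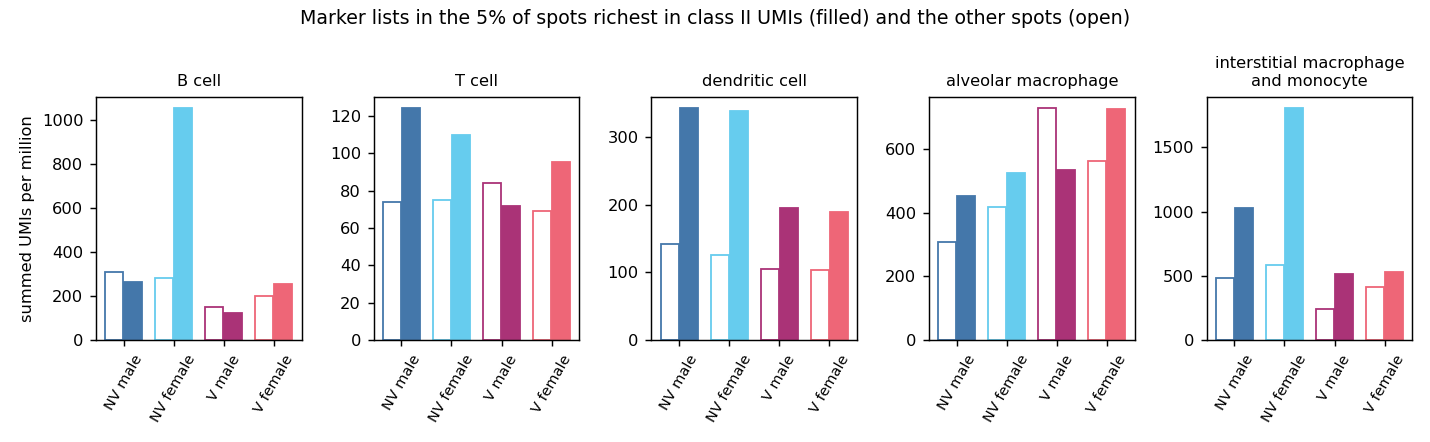
Summed CPM of 5 marker lists in the 5% of spots richest in class II UMIs (filled bars) and in the other spots (open bars) of each section, bars starting at 0. Dendritic cell and interstitial macrophage bars are higher in the top spots of all 4 sections, and the B cell bar stands out in the NV female at 1054.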

How the data were processed

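The authors aligned the reads with Space Ranger to the mm10 reference and deposited the UMI counts of each section as a table of genes by spots, not normalized, and these counts were used as they stand. Groups came from the sample labels. UMIs were summed per section, or per section and class of spot after thinning spots to 3000 UMIs, and tested with the quasi-likelihood test of edgeR 4.0.16 (R 4.3.3) after filterByExpr and TMM scaling, with Benjamini-Hochberg adjustment over all genes tested. Marker contrasts carried the section as a block. Levels in the text are counts per 1000000 UMIs (CPM). With 1 section per mouse, p-values of V against NV measure the spread between these 4 sections, biological and technical. Those of the marker contrasts and of their difference between groups measure how the contrast within a section varies between sections. The genes named were the 7 members, a list of pathway genes, the 10 genes most like the members over spots and marker genes where a result turned on them. Members and lists were chosen with earlier results of these data known. The edgeR tests of V against NV and of the Cd79a, Marco and Sftpc contrasts were also run on simulated data. The interaction test and DESeq2's Wald test were not. Alternatives were DESeq2 1.42.0, other scalings and filters, other thinning depths, alveolar spots alone, the replicate number as a block and each mouse left out. Positions are from GENCODE's annotation of GRCm38.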

Additional observations from a re-analysis of the deposited data

How the results depend on the processing

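The number of the 7 genes called stayed at 0 in all 11 alternatives for V against NV, in all 14 for Cd79a, in all 14 for Marco and in all 4 for each test of a difference between groups. The replicate numbers mark sex alone, with a correlation of 0.41 between the 2 male deviations over 13017 genes, and the replicate block called 0 of the 7 genes and no other gene for V against NV. For Sftpc, 1 of the 7 genes was called with the section as a block, and 0 without that block. It was also 0 at 1000 and at 5000 UMIs per spot and with the ranking by 6 other markers, and 0 to 3 as each mouse was left out. The cause was not tested.

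Changes of sign concerned genes that were not called. For V against NV, leaving out each mouse gave -0.85 to 0.12 for H2-DMa, -0.47 to 0.15 for H2-DMb1 and -1.21 to 0.38 for Ciita on the log2 scale. For Cd79a, H2-Eb1 was -0.0017 at 1000 UMIs per spot, H2-DMa -0.035 without thinning and -0.41 with at least 2 Cd79a UMIs, H2-DMb1 -0.077 at 5000 UMIs, -0.015 in alveolar spots and -0.13 with at least 2 UMIs, and Ciita -0.33 at 5000 UMIs, -0.037 without thinning, -0.076 in alveolar spots and -0.051 to 0.095 as each mouse was left out. For Sftpc in alveolar spots, H2-Ab1 was -0.049, H2-DMa -0.091 and Ciita -0.050. H2-DMa was -0.043 to 0.26 as each mouse was left out. H2-Eb1 was 0.13 at 1000 UMIs, 0.021 at 5000 UMIs, 0.065 without thinning, 0.10 with the 6 other markers and -0.26 to 0.017 as each mouse was left out.

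The share of spots with Ciita moved with depth, to 2.96% (NV male), 2.20% (NV female), 0.964% (V male) and 3.14% (V female) at 1000 UMIs, to 9.05% (NV male) and 13.1% (V female) at 5000 UMIs, and to 20.3%, 15.9%, 5.88% and 28.1% without thinning. For all genes, the number called over the alternatives was 0 to 811 for V against NV, 1 to 273 for Cd79a (179 as reported), 1 to 75 for Marco (36 as reported) and 0 to 2223 for Sftpc (774 as reported). The median of the 7 genes for Sftpc was -0.044 in alveolar spots.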
